A study of Mus musculus with 6 samples.

Results

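The 10 genes described here belong to the BMP, TGF-beta and hedgehog pathways of the colon epithelium, and they are *Bmp2*, *Tgfb1*, *Ihh*, *Bmpr1a*, *Tgfbr2*, *Smad6*, *Smad7*, *Id1*, *Id2* and *Id3*. They were taken by name as ligands, receptors, inhibitors and targets of these pathways, and all 10 were found among the 52550 genes listed for each sample. RNA-seq was performed on colon epithelium, released from the tissue with EDTA and DTT, in 3 Zfp90 fl/fl samples and 3 Zfp90ΔIEC samples. In Zfp90ΔIEC mice the Villin-cre transgene, which is active in intestinal epithelial cells, removes floxed sequence of *Zfp90*, a gene for a zinc finger protein. Zfp90 fl/fl mice carry the same floxed alleles without the transgene. Both genotypes were male mice on a C57BL/6 background, 6 to 8 weeks old at the start per the labels. Both were injected with 10 mg/kg of the carcinogen azoxymethane (AOM). The labels give 2% dextran sulfate sodium (DSS), which injures the colon lining, from 5 days later, with 7 days of DSS and 14 days of water in each of 3 cycles, and an end on day 80. The study's methods give another DSS strength and a single age for the mice. Every sample was therefore from AOM-DSS-treated colon, and an untreated colon was not analysed here. Littermates were housed apart by genotype after weaning, and effects of cage and of genotype cannot be told apart. The labels do not state that each sample came from a separate animal, and the p-values measure the spread between these samples.

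BMP ligands bind paired receptors on the cell surface, which phosphorylate Smad proteins that enter the nucleus with Smad4 and switch on *Id* genes and the inhibitory Smads. In the colon, BMP signalling is strong toward the surface of the crypt, where cells differentiate, and is held low at the crypt base by antagonists from the stroma. TGF-beta uses its own receptors and Smads and restrains epithelial growth. Indian hedgehog, made by epithelial cells, signals to the mesenchyme beneath them.

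The *Id1*, *Id3* and *Ihh* transcripts lay at about 1.2 times the Zfp90 fl/fl level in Zfp90ΔIEC colon epithelium, and all 3 Zfp90ΔIEC samples exceeded all 3 Zfp90 fl/fl samples for each of them. The receptors *Bmpr1a* and *Tgfbr2* had nearly equal means in both genotypes. *Id2* and *Smad6* varied more among the Zfp90ΔIEC samples than among the Zfp90 fl/fl samples. None of these differences passed the test across all genes. Of the 10 genes, 9 were tested with limma on log2(FPKM + 1), where FPKM counts sequenced fragments relative to transcript length in kilobases and to sequencing depth in M, and 0 of the 9 had an adjusted p (Benjamini-Hochberg) under 0.05. Across all 11564 genes tested, 23 passed, which is 0.199%. At an unadjusted p under 0.05 there were 3 of the 9, all higher in Zfp90ΔIEC, while 14.6% of all tested genes reached this level in either direction and 6.56% reached it in the higher direction. Samples of the genotypes did not overlap for 3 of the 10 genes, all higher in Zfp90ΔIEC, against 8.73% of the tested genes. The median log2 fold change of the 9 was 0.02, beside -0.02 over all genes tested, with 7 above 0 and 2 below.

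*Zfp90* itself, as a check of the labels, was measured at 0.63, 0.49 and 0.569 FPKM in the Zfp90 fl/fl samples and at 0.0846, 0.195 and 0.166 FPKM in the Zfp90ΔIEC samples, without overlap. It did not reach 1 FPKM in any sample and was left out of the tested genes. In limma on all genes with a nonzero value its log2 fold change was -0.44 (adjusted p = 0.123). Depth was estimated at 28.1 to 30.9 M fragments per sample, which makes a level of 1 FPKM about as many fragments per kilobase as the depth in M. The summed level of 8 epithelial markers was 6070 to 6900 FPKM in Zfp90 fl/fl and 6020 to 6600 FPKM in Zfp90ΔIEC, and that of the crypt base markers 30.5 to 39.2 and 30.2 to 40.2 FPKM. Fibroblast markers summed to 3.2 to 3.77 and 2.21 to 3.25 FPKM, smooth muscle and glial markers to 0.599 to 1.02 and 0.96 to 1.23 FPKM, and endothelial markers to 0.476 to 0.642 and 0.745 to 0.855 FPKM. *Pdgfrb* (means of 1.92 and 1.47 FPKM) and *Vim* (1.18 and 1.04 FPKM) made up most of the fibroblast sum. Of the endothelial markers, 3 had a higher and 3 a lower mean in Zfp90ΔIEC. Leukocyte markers were at 10.2 to 11.2 FPKM in Zfp90 fl/fl and 3.83 to 4.91 FPKM in Zfp90ΔIEC, with a lower mean for 14 of 14 genes and *S100a8* and *S100a9* listed at 0 in every Zfp90ΔIEC sample. In such bulk samples, fewer cells of a type and less RNA per cell cannot be told apart.

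**Figure D1:**
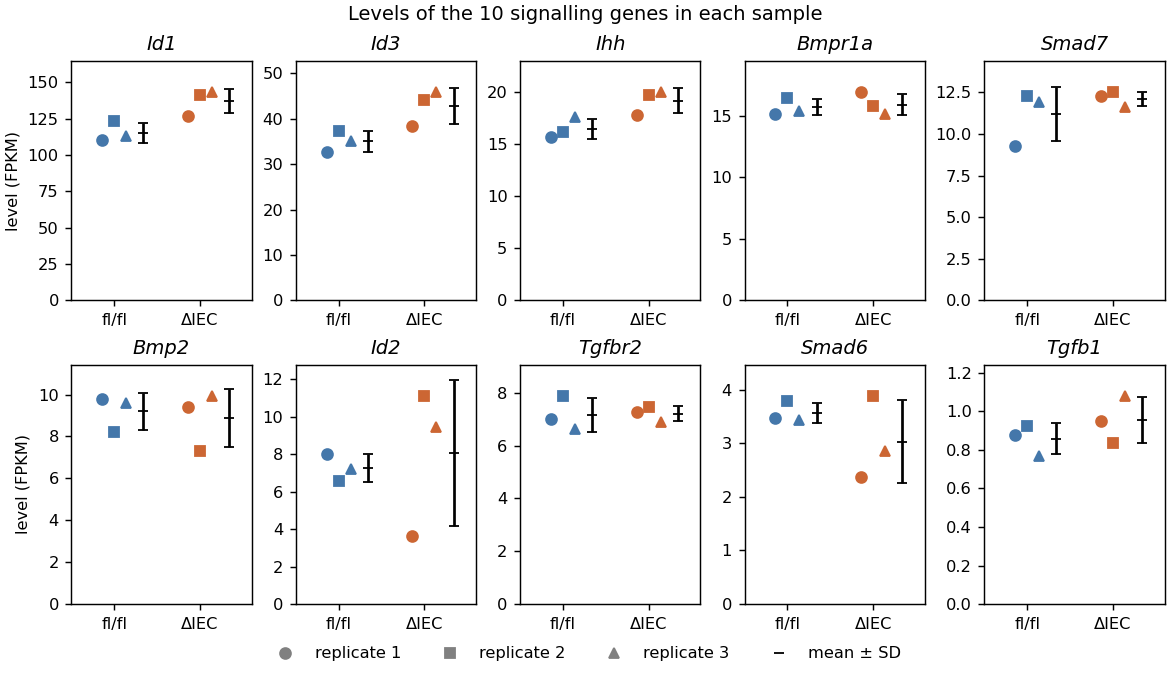
Levels of the 10 genes in FPKM (vertical axes from 0, a scale of its own for each gene) in the 3 Zfp90 fl/fl samples (blue) and the 3 Zfp90ΔIEC samples (orange), with the mean and SD of each genotype in black. *Id1*, *Id3* and *Ihh* separate the genotypes, while replicate 1 of Zfp90ΔIEC lies far below the others for *Id2*, at 3.64 FPKM.

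Among the ligands, *Ihh* had the highest level. *Ihh* was at 15.7, 16.2 and 17.6 FPKM in Zfp90 fl/fl and at 17.8, 19.7 and 20.0 FPKM in Zfp90ΔIEC, here and throughout in the order of replicates 1, 2 and 3. The genotypes did not overlap, but the lowest Zfp90ΔIEC sample lay close to the highest Zfp90 fl/fl sample. The means were 16.5 ± 0.944 and 19.2 ± 1.19 FPKM (SD, n = 3 each), with a log2 fold change of 0.20 (95% interval 0.04 to 0.37, standard error 0.0697, adjusted p = 0.262).

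*Bmp2*, a ligand that the more mature cells of the colon epithelium make, was at 9.77, 8.2 and 9.61 FPKM in Zfp90 fl/fl and at 9.42, 7.31 and 9.93 FPKM in Zfp90ΔIEC. The genotypes overlapped almost completely. In both, replicate 2 was the lowest of the 3. The log2 fold change of *Bmp2* was -0.05 (95% interval -0.33 to 0.23, standard error 0.1185, adjusted p = 0.881).

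*Tgfb1*, which encodes the TGF-beta 1 ligand that leukocytes and stromal cells also make, was the lowest of the 10 genes. It was measured at 0.88, 0.924 and 0.768 FPKM in Zfp90 fl/fl and at 0.949, 0.838 and 1.08 FPKM in Zfp90ΔIEC. Only the third Zfp90ΔIEC sample exceeded 1 FPKM, so *Tgfb1* did not meet the filter of at least 1 FPKM in at least 3 samples, and its statistics come from the fit without the filter. In that fit its log2 fold change was 0.07 (95% interval -0.13 to 0.27, standard error 0.0813, adjusted p = 0.771).

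The receptors showed the narrowest intervals of the 10 genes, together with *Id1* and *Ihh*. *Bmpr1a*, the type I receptor through which BMP ligands signal in the intestine, was at 15.1, 16.4 and 15.4 FPKM in Zfp90 fl/fl and at 16.9, 15.8 and 15.1 FPKM in Zfp90ΔIEC. *Tgfbr2*, the receptor that binds TGF-beta first, was at 6.99, 7.88 and 6.64 FPKM in Zfp90 fl/fl and at 7.27, 7.46 and 6.91 FPKM in Zfp90ΔIEC. The genotypes overlapped for both receptors. For *Bmpr1a* the log2 fold change was 0.02 (adjusted p = 0.9, standard error 0.0629) and the interval of the fold on the scale of FPKM + 1 ran from 0.916 to 1.13. For *Tgfbr2* it was 0.01 (adjusted p = 0.964, standard error 0.0728), with a fold between 0.893 and 1.13. A change larger than these bounds was thus outside the 95% interval, while a smaller one was not. The bounds are no limit of detection with 3 samples a genotype. *Id1*, at a log2 fold change of 0.24 and a standard error of 0.0717, was not called in limma (adjusted p = 0.202). The ratio of *Bmpr1a* to *Tgfbr2* within a sample stayed between 2.08 and 2.33 in all 6.

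The inhibitory Smads are induced by the pathways that they restrain, *Smad6* mainly in BMP signalling and *Smad7* in both. *Smad6* was at 3.47, 3.78 and 3.43 FPKM in Zfp90 fl/fl and at 2.37, 3.88 and 2.85 FPKM in Zfp90ΔIEC. The Zfp90ΔIEC samples thus held both the lowest and the highest value of the 6, and their coefficient of variation was 25.5%, against 5.33% in Zfp90 fl/fl. The log2 fold change of *Smad6* was -0.19 (95% interval -0.51 to 0.12, standard error 0.1334, adjusted p = 0.556). Without Zfp90ΔIEC replicate 1 it was -0.07 (adjusted p = 0.797), and without Zfp90ΔIEC replicate 2 it was -0.34 (adjusted p = 0.268). *Smad7* was at 9.29, 12.3 and 11.9 FPKM in Zfp90 fl/fl and at 12.3, 12.5 and 11.6 FPKM in Zfp90ΔIEC. Here replicate 1 of Zfp90 fl/fl was the low sample and the other 5 lay close together. For *Smad7* the log2 fold change was 0.12 (95% interval -0.12 to 0.36, standard error 0.1032, adjusted p = 0.642), and without that Zfp90 fl/fl replicate 1 it was 0.0045 (adjusted p = 0.99). The ratio of *Smad7* to *Smad6* ranged from 2.68 to 5.2 over the 6 samples.

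The Id proteins bind basic helix-loop-helix transcription factors and keep them off DNA, and their genes are among the most direct BMP targets in epithelial cells. *Id1* was at 110, 123 and 113 FPKM in Zfp90 fl/fl and at 127, 141 and 143 FPKM in Zfp90ΔIEC. *Id3* was at 32.6, 37.2 and 35.1 FPKM in Zfp90 fl/fl and at 38.4, 44.2 and 45.8 FPKM in Zfp90ΔIEC. For both genes the 3 Zfp90ΔIEC samples lay above the 3 Zfp90 fl/fl samples, and replicate 1 was the lowest of each genotype. *Id1* had means of 115 ± 7.04 and 137 ± 8.52 FPKM (SD, n = 3 each), which differed on the log2 scale by 0.24 (95% interval 0.07 to 0.41, standard error 0.0717) and an adjusted p of 0.202. *Id3* had means of 35.0 ± 2.31 and 42.8 ± 3.9 FPKM (SD, n = 3 each), which differed on the log2 scale by 0.28 (95% interval 0.08 to 0.48, standard error 0.0846) and an adjusted p of 0.206. The 2 genes kept an almost fixed ratio to each other. *Id1* divided by *Id3* was 3.37, 3.31 and 3.21 in Zfp90 fl/fl and 3.3, 3.18 and 3.11 in Zfp90ΔIEC, so that the highest ratio was 1.08 times the lowest.

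*Id2* did not share this pattern. It was at 8.03, 6.55 and 7.18 FPKM in Zfp90 fl/fl and at 3.64, 11.1 and 9.43 FPKM in Zfp90ΔIEC. One Zfp90ΔIEC sample, replicate 1, lay below every Zfp90 fl/fl sample and the other 2 lay above every one of them. The highest Zfp90ΔIEC value was 3.04 times the lowest, and the SD of the log2 values was 0.743 in Zfp90ΔIEC and 0.129 in Zfp90 fl/fl, where the median SD over all tested genes was 0.0987 and 0.0823. The log2 fold change of *Id2* was 0.02 with a standard error of 0.3345 (95% interval -0.77 to 0.81, adjusted p = 0.981). Without Zfp90ΔIEC replicate 1 it was 0.45 (adjusted p = 0.156), and without Zfp90ΔIEC replicate 2 it was -0.24 (adjusted p = 0.806). The ratio of *Id1* to *Id2* was 34.9 in Zfp90ΔIEC replicate 1 and between 12.7 and 18.8 in the other 5 samples. The same Zfp90ΔIEC replicate 1 held the lowest *Smad6* value, and it held the highest level of *Muc2*, the gel-forming mucin of goblet cells, at 1010 FPKM against 593 and 465 FPKM in the other Zfp90ΔIEC samples. Among the Zfp90ΔIEC samples it was also the highest for the goblet markers *Agr2*, *Zg16* and *Atoh1*, but not for *Fcgbp*, *Spdef* and *Clca1*. For *Tff3* this replicate was the lowest, at 247 FPKM against 266 and 307 FPKM. The part of this library's makeup in the *Id2* and *Smad6* values was not tested.

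**Figure D2:**
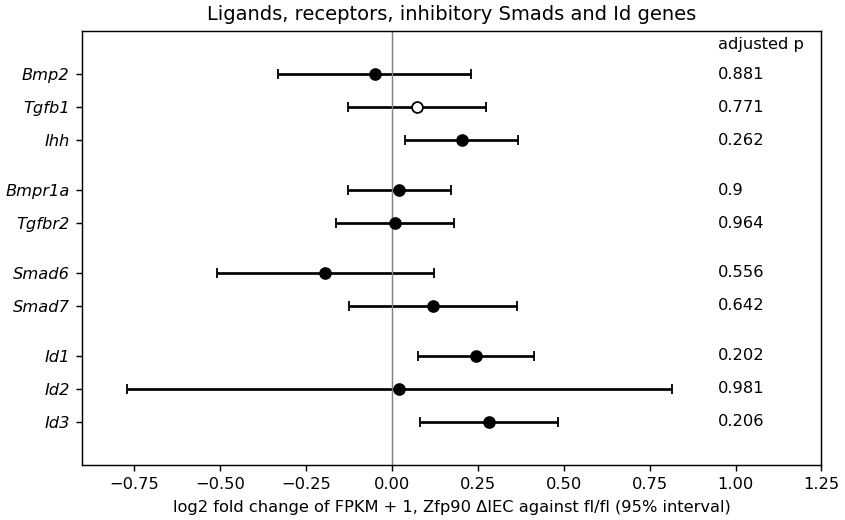
Log2 fold change of FPKM + 1 between Zfp90ΔIEC and Zfp90 fl/fl (horizontal axis, points) with its 95% interval (bars) for the 10 genes, grouped from top to bottom as ligands, receptors, inhibitory Smads and Id genes, with the adjusted p from limma at the right. The open point is *Tgfb1*, from the fit without the filter, and the intervals of *Id1*, *Id3* and *Ihh* lie above 0 while no adjusted p is under 0.05.

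Since FPKM is a level per length of transcript, the genes can be put in order. Over the 6 samples *Id1* had the highest mean at 126 FPKM, followed by *Id3* at 38.9, *Ihh* at 17.8, *Bmpr1a* at 15.8, *Smad7* at 11.6, *Bmp2* at 9.04, *Id2* at 7.65, *Tgfbr2* at 7.19, *Smad6* at 3.3 and *Tgfb1* at 0.907 FPKM. The steps from *Id1* to *Id3*, from *Id3* to *Ihh*, from *Bmpr1a* to *Smad7*, from *Tgfbr2* to *Smad6* and from *Smad6* to *Tgfb1* left no overlap between the 2 genes over the 6 samples. The other neighbours overlapped. *Ihh* exceeded *Bmpr1a*, *Smad7* exceeded *Bmp2* and *Bmp2* exceeded *Id2* in 5 of 6 samples each, and *Id2* exceeded *Tgfbr2* in 4 of 6.

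The proximal promoters of 7 of the 10 genes were matched in RefSeq on GRCm38.p6, as windows from 250 bases before to 50 bases after the gene start, and *Id1*, *Smad7* and *Bmp2* were not among them. The windows were searched for 2 motifs that Smad complexes are known to bind. The 3 stretches with a match are shown, in *Smad6* and *Id2*, as targets, and in *Bmpr1a*, as a receptor. Capitals mark the motif, each stretch is read 5′ to 3′ on the minus strand, and both motifs read the same on either strand.
Smad6: gccgccaaagtGTCTAGACtggcatatgat
Id2: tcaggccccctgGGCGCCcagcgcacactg
Bmpr1a: tgcgcgcgcgccGGCGCCtcttgctcgccc

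The *Smad6* stretch is chr9:64022045-64022074, and its GTCTAGAC, the palindromic Smad binding element, begins 4 bases before the gene start. The *Id2* stretch is chr12:25096306-25096335, with GGCGCC, a GC-rich Smad box, beginning 231 bases before the start. The *Bmpr1a* stretch is chr14:34502727-34502756, with GGCGCC beginning 198 bases before the start. GTCTAGAC occurred in 0.213% of all 32851 promoter windows, and GGCGCC in 11.9% of them, and the letters of these motifs cannot overlap each other. A match describes letters only, and binding was not measured. Among the Zfp90ΔIEC samples *Smad6* and *Id2* had a wide spread and *Bmpr1a* a narrow one, and *Id2* and *Bmpr1a* both carry GGCGCC. A link between motif and spread was not tested.

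The other genes of the pathways were taken in 7 lists that hold 107 further measured genes. Of these, 40 passed the filter and 67 lay below it. By limma 0 of the 40 had an adjusted p under 0.05, the lowest being 0.134. At an unadjusted p under 0.05 there were 8, or 20.0%, against 14.6% of all genes tested. Of the 8, 2 were higher and 6 lower in Zfp90ΔIEC, where 6.56% of all genes tested were higher and 8.09% lower at this level. The genotypes did not overlap for 2 genes higher and 11 lower in Zfp90ΔIEC, the latter being 27.5% of the 40. Of all genes tested, 8.73% were higher and 12.6% lower without overlap. The median log2 fold change of the 40 was -0.08, beside -0.02 over all genes tested, with 30 below 0 and 10 above. The share of all genes below 0 was not counted.

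Of 16 further BMP and growth differentiation factor ligands, 3 passed the filter. *Gdf15*, a distant member of the family that cells make under stress, had the largest difference of the 40 genes, at 6.78, 4.75 and 3.13 FPKM in Zfp90 fl/fl and 10.4, 8.94 and 9.21 FPKM in Zfp90ΔIEC. All Zfp90ΔIEC samples lay above the Zfp90 fl/fl samples, which differed among themselves. The log2 fold change of *Gdf15* was 0.88, with a standard error of 0.2117 (adjusted p = 0.134). *Bmp3* was at 5.67, 5.31 and 6.05 FPKM in Zfp90 fl/fl and at 8.73, 5.86 and 5.84 FPKM in Zfp90ΔIEC, where Zfp90ΔIEC replicate 1 was the one high sample. *Bmp8a* had means of 1.05 and 1.26 FPKM. A maximum under 0.1 FPKM was found for 7 of the 16 ligands, among them *Bmp4*, a ligand of stromal cells, and *Bmp10*, *Gdf5* and *Gdf6* were listed at 0 in every sample.

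Of 17 antagonists and modulators, 3 were tested. *Nbl1*, a secreted BMP antagonist, was at 2.89, 2.86 and 2.44 FPKM in Zfp90 fl/fl and at 3.40, 3.21 and 3.94 FPKM in Zfp90ΔIEC, without overlap (log2 fold change 0.27, adjusted p = 0.235). *Twsg1*, which binds BMPs together with chordin, did not overlap either and was lower in Zfp90ΔIEC (log2 fold change -0.12, adjusted p = 0.402). *Rgmb*, a BMP co-receptor, had means of 12.3 and 13.4 FPKM with overlap. *Grem1* and *Nog*, the antagonists known from the stroma around the crypt base, were among 10 genes of this list that stayed under 0.1 FPKM in every sample, and *Chrdl2*, *Fst*, *Sost* and *Sostdc1* were listed at 0 throughout.

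**Figure D3:**
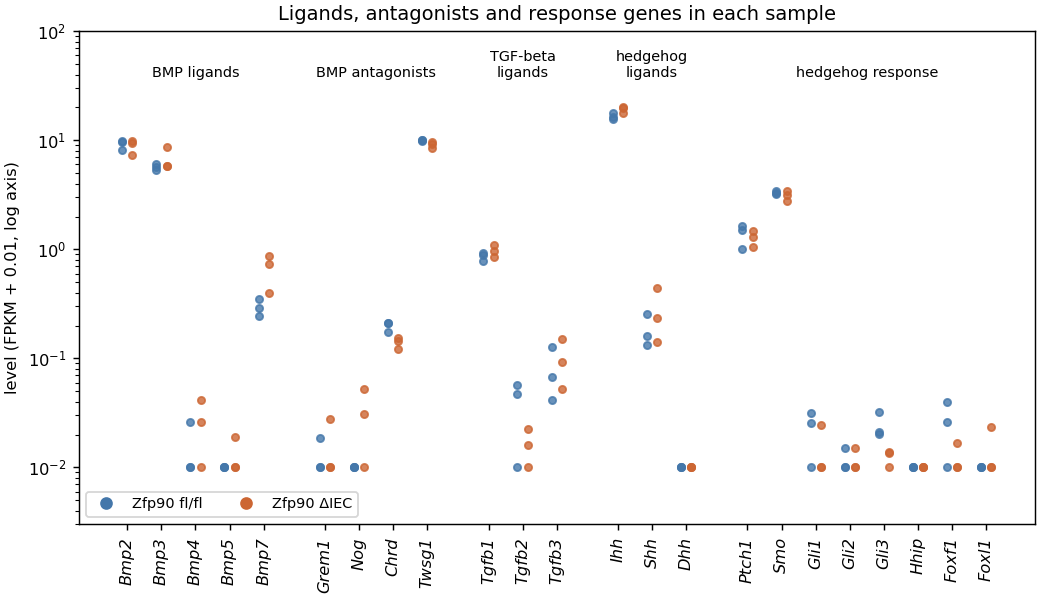
Levels of ligands, antagonists and hedgehog receptor, effector and target genes (headed hedgehog response) in each of the 3 Zfp90 fl/fl samples (blue) and 3 Zfp90ΔIEC samples (orange), as FPKM + 0.01 on a log axis, so that a gene listed at 0 sits at 0.01. *Bmp2*, *Bmp3*, *Twsg1* and *Ihh* lie well above 1 FPKM while *Bmp4*, *Grem1*, *Nog* and the *Gli* genes lie near the floor in both genotypes.

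Of the 9 further BMP and activin receptors, 5 were tested and their median log2 fold change was -0.16. *Bmpr2*, the type II partner of *Bmpr1a*, was at 3.68, 3.29 and 3.17 FPKM in Zfp90 fl/fl and at 3.01, 2.66 and 2.65 FPKM in Zfp90ΔIEC, without overlap (log2 fold change -0.22 ± 0.0754 standard error, adjusted p = 0.269). The activin receptor genes *Acvr1b* and *Acvr2a* had means of 28.3 and 27.4 FPKM and of 8.58 and 9.02 FPKM, and *Acvr1*, a type I receptor for BMPs, of 3.75 and 3.22 FPKM, all with overlap. The type II BMP receptor thus had an unadjusted p under 0.05 while *Bmpr1a* did not, and the difference between the 2 genes was not tested.

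The Smads and their regulators had a log2 fold change below 0 for 13 of 14 tested genes. Their median was -0.12, beside -0.02 over all genes tested, and the share of all genes below 0 was not counted. For 5 of the 14 the genotypes did not overlap, all lower in Zfp90ΔIEC, against 12.6% of all genes tested. *Smad4*, the partner shared by BMP and TGF-beta signals, was at 26.7, 29.6 and 30.7 FPKM in Zfp90 fl/fl and at 24.0, 21.5 and 27.7 FPKM in Zfp90ΔIEC, with overlap (log2 fold change -0.24, adjusted p = 0.328). *Skil*, a repressor of Smad-driven transcription that TGF-beta induces, was at 3.39, 4.61 and 3.65 FPKM in Zfp90 fl/fl and at 2.59, 2.32 and 3.04 FPKM in Zfp90ΔIEC, without overlap (log2 fold change -0.42, adjusted p = 0.182). *Smurf1* and *Smurf2* encode ubiquitin ligases that mark Smads and receptors for removal. Neither overlapped between genotypes, with log2 fold changes of -0.25 (adjusted p = 0.208) and -0.11 (adjusted p = 0.374). *Tgif1*, a corepressor of Smads, had means of 14.3 and 13.5 FPKM.

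For TGF-beta, 4 of 16 further ligand, activator and receptor genes were tested, with a median log2 fold change of -0.02 and 0 at an unadjusted p under 0.05. *Thbs1*, whose protein can release active TGF-beta, had means of 84.9 and 91.9 FPKM. *Tgfbr1*, the signalling partner of *Tgfbr2*, was at 5.18, 4.69 and 4.79 FPKM in Zfp90 fl/fl and at 4.68, 4.03 and 3.89 FPKM in Zfp90ΔIEC, with the genotypes just apart (log2 fold change -0.18, adjusted p = 0.349). *Itgb6*, a subunit of an integrin that activates TGF-beta in epithelia, had means of 3.94 and 3.47 FPKM.

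Of the 16 further target genes, 7 were tested. In limma 3 of the 7 had an unadjusted p under 0.05, all lower in Zfp90ΔIEC, against 8.09% of all genes tested. They were *Skil*, given above, *Pmepa1* and *Ccn1*. *Pmepa1*, a TGF-beta target whose protein dampens the pathway, was at 2.03, 2.03 and 2.05 FPKM in Zfp90 fl/fl and at 1.61, 1.33 and 1.68 FPKM in Zfp90ΔIEC (log2 fold change -0.26, adjusted p = 0.206). *Ccn1*, which encodes a matrix protein, was at 123, 125 and 147 FPKM in Zfp90 fl/fl and at 109, 108 and 115 FPKM in Zfp90ΔIEC (log2 fold change -0.24, adjusted p = 0.24). These targets had lower means in Zfp90ΔIEC, whereas *Id1* and *Id3* had higher means, and no test compared the directions. *Cdkn1a*, a cell cycle inhibitor, had means of 81.7 and 103 FPKM with overlap (log2 fold change 0.31, adjusted p = 0.424), and *Hes1*, also a Notch target, of 45.8 and 44.4 FPKM.

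Several hedgehog effector and target genes were near 0 in the isolated epithelium. Of 21 hedgehog genes beside *Ihh*, 6 were tested, and 0 had an unadjusted p under 0.05. All 6 had a log2 fold change below 0, with a median of -0.07 beside -0.02 over all genes tested. The co-receptors *Boc* and *Cdon* had means of 13.2 and 12.2 FPKM and of 2.46 and 2.42 FPKM, and *Smo*, the transducer of the signal, of 3.32 and 3.10 FPKM. *Ptch1*, the receptor and itself a target, was at 0.987, 1.49 and 1.61 FPKM in Zfp90 fl/fl and at 1.03, 1.29 and 1.47 FPKM in Zfp90ΔIEC, with full overlap. *Gli1*, *Gli2* and *Gli3*, the transcription factors of the pathway, were among 12 genes of this list that stayed under 0.1 FPKM. So were *Foxf1* and *Foxl1*, which respond in mesenchymal cells. *Dhh*, *Scube2* and *Hhip* were listed at 0 in every sample. Fibroblast markers were low in the same samples, as given above.

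**Figure D4:**
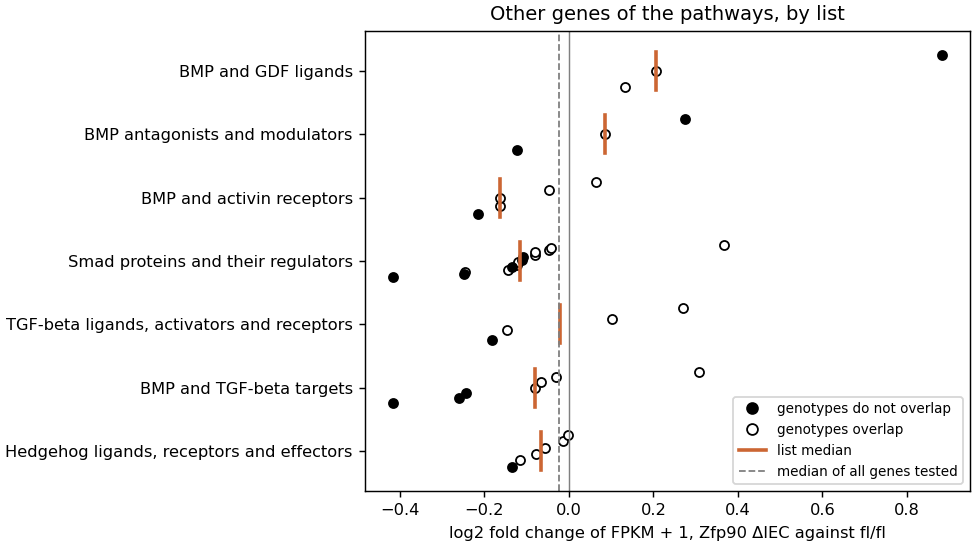
Log2 fold change of FPKM + 1 between Zfp90ΔIEC and Zfp90 fl/fl (horizontal axis) for the tested genes of the 7 pathway lists, with filled points where the genotypes did not overlap, an orange bar at each list's median and a dashed line at the median of all genes tested, -0.02. For the Smad proteins and their regulators 13 of 14 points lie below 0, and *Gdf15* is the point farthest to the right at 0.88.

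The summed level of 8 surface colonocyte markers was 5820 to 7700 FPKM in Zfp90 fl/fl and 8510 to 12700 FPKM in Zfp90ΔIEC. Of the 8, *Car1*, *Slc26a3*, *Aqp8*, *Guca2a* and *Slc9a3* were higher in Zfp90ΔIEC without overlap, against 8.73% of all genes tested. The median log2 fold change of the 8 was 0.50, beside -0.02 over all genes tested. In limma 5 of 8 were higher at an unadjusted p under 0.05, against 6.56% of all genes tested. At an adjusted p under 0.05 there were 0 of 8. *Slc26a3*, the chloride exchanger of mature colonocytes, was at 76.0, 76.8 and 89.9 FPKM in Zfp90 fl/fl and at 108, 112 and 129 FPKM in Zfp90ΔIEC (log2 fold change 0.52, adjusted p = 0.0873). Goblet cell markers summed to 1920 to 2340 FPKM in Zfp90 fl/fl and 2550 to 3410 FPKM in Zfp90ΔIEC. Their log2 fold change was above 0 for 8 of 8, with a median of 0.39 beside -0.02 over all genes tested. Only 3 of the 8 goblet markers were higher without overlap, against 8.73% of all genes tested, and *Fcgbp*, *Spdef*, *Clca1*, *Tff3* and *Atoh1* overlapped. In limma 3 of the 8 were higher at an unadjusted p under 0.05, against 6.56% of all genes tested, and 0 of 8 had an adjusted p under 0.05. *Krt20*, *Car4* and *Ceacam1*, the remaining colonocyte markers, overlapped between genotypes, as *Bmp2* did. The part of cell makeup in the *Id1*, *Id3* and *Ihh* values was not tested.

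**Figure D5:**
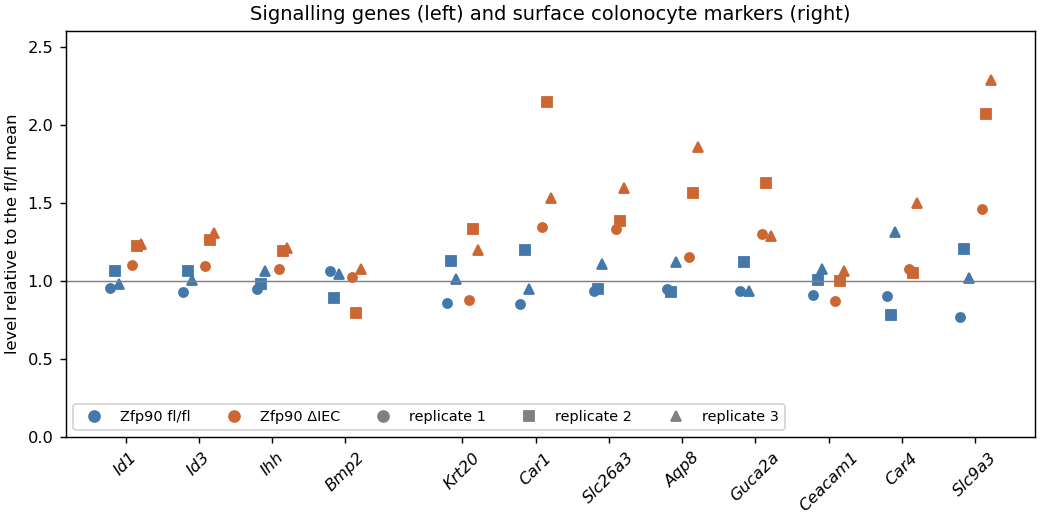
Level of each gene relative to its Zfp90 fl/fl mean (vertical axis, 1 is the Zfp90 fl/fl mean) in the 3 Zfp90 fl/fl samples (blue) and 3 Zfp90ΔIEC samples (orange), with *Id1*, *Id3*, *Ihh* and *Bmp2* at the left and the 8 surface colonocyte markers at the right. *Id1*, *Id3* and *Ihh* separate the genotypes by less than *Slc26a3* or *Slc9a3* does, and *Bmp2*, *Krt20*, *Ceacam1* and *Car4* overlap.

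The genes whose profile over the 6 samples was most like that of *Id1* were *Ska2*, *Bex2* and *Gjb5*, by the mean absolute difference of centred log2(FPKM + 1). These differences were 0.0262, 0.0284 and 0.0287, where *Id1* itself deviated from its own mean by 0.122 on average. The mean levels in Zfp90 fl/fl and Zfp90ΔIEC were 1.72 and 2.24 FPKM for *Ska2*. They were 1.3 and 1.71 FPKM for *Bex2* and 0.931 and 1.29 FPKM for *Gjb5*. At such low levels the scale of FPKM + 1 shrinks changes, so the likeness to *Id1* depends on this scale. For *Ihh*, with a deviation of 0.101, the nearest genes were *Pls1*, *Sult1d1* and *Riok3* at 0.0217, 0.0227 and 0.0259. For *Bmp2*, with a deviation of 0.128, they were *Pdik1l*, *Vsig2* and *Rogdi* at 0.0315, 0.0336 and 0.0339. The likeness was measured over 6 samples of 2 genotypes against each of 11563 other tested genes, and it is given as a description.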

How the data were processed

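The authors deposited 1 file of gene-level values per sample, which names no unit. The values were taken as FPKM from the tools named for the study and from the values themselves. The sources disagree on the tools and genome (TopHat and Cuffdiff with a human genome, or STAR 2.5, Cuffnorm and mm9), while the files list mouse Ensembl identifiers, of which 52403 of 52550 had a symbol in the GRCm38 annotation. No coordinates were taken for the measured genes, and those of the promoter stretches come from RefSeq on GRCm38.p6. For 2 Zfp90ΔIEC samples the genotype field names another gene number, and these were grouped from their titles.

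The deposited FPKM were put on the log2(FPKM + 1) scale. Testing was limited to genes that reached 1 FPKM in 3 or more samples, with limma 3.58.1 (linear model on genotype, intensity trend) in R 4.3.3 with Benjamini-Hochberg adjustment, at a threshold of 0.05. Members below the filter took their statistics from the fit without it. The test was checked on simulated data with larger changes than those of *Id1*, *Id3* and *Ihh*. The check thus does not speak to changes of their size. Fold changes on this scale understate the change of low genes.

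Depth was estimated from the steps of low FPKM in genes with 1 transcript of at least 1500 bases, assuming fragments of 200 bases, and 58.6% to 63.1% of values lay within 10% of a whole step, too few to recover counts.

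The 10 genes and all lists were chosen with earlier results of these data known. Named from the pathway lists were the 3 genes with the highest mean of each list and any gene past the threshold (none was). Other pathway and marker genes, such as those at an unadjusted p under 0.05, without overlap or near 0, were named after their values were seen. Of the listed symbols 3 were not matched, 2 of them older names of *Ccn1* and *Ccn2*. *Skil*, *Tgif1*, *Smad9* and *Bambi* stand in 2 lists. The alternatives tried were leaving out each sample, the replicate number as a block, quantile normalization, scaling by median ratios, a pseudocount of 0.1 and no filter. The result of a gene in the pathway lists is not reported here.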

Additional observations from a re-analysis of the deposited data

How the results depend on the processing

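With 3 samples a genotype, the log2 fold changes of *Id1*, *Id3* and *Ihh* stayed above 0 under all 11 alternatives, at 0.21 to 0.30, 0.23 to 0.36 and 0.17 to 0.25, with adjusted p of 0.1 to 0.424, 0.12 to 0.433 and 0.187 to 0.498. The counts of the 10 genes and of the other pathway genes at an adjusted p under 0.05 were 0 under every alternative. Over all genes the count was 23, with 13 at a pseudocount of 0.1, 15 without the filter, 20 under quantile normalization, 25 under median ratio scaling, and 10 to 21 when a sample was left out, the lowest without Zfp90 fl/fl replicate 2. With the replicate block it was 47, and the block changed no call of the 10 genes (*Id1* adjusted p = 0.163, *Id3* 0.144, *Ihh* 0.201). Deviations of same-numbered samples correlated at 0.194, 0.11 and 0.0782 across genes. Each Zfp90 fl/fl sample correlated best with the Zfp90ΔIEC sample of its own number, and the reverse was not computed. This is a hint from the data and not from the design, so the numbers were not taken to pair samples. Of the 10 genes, those without overlap numbered 3 to 5 when a sample was left out. There were 5 without Zfp90ΔIEC replicate 2, where *Smad6* (lower) and *Tgfb1* (higher) joined. Fewer samples separate more easily, and the share of all tested genes was not computed with a sample left out. The rise to 5 is thus not a result about these genes. Leaving out a sample turned the direction of 4 genes that passed no test, over ranges of -0.24 to 0.45 for *Id2*, -0.13 to 0.0702 for *Bmp2*, -0.0176 to 0.057 for *Bmpr1a* and -0.0371 to 0.0708 for *Tgfbr2*. *Id2* turned without Zfp90 fl/fl replicate 2 and without Zfp90ΔIEC replicates 2 or 3. The causes were not tested. Genes near 0 FPKM rest on few fragments, and a value of 0 there cannot be told from a low one.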

Other observations

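Several pathway genes below the filter were measurable in every sample. *Bmp7*, a BMP ligand, was at 0.279, 0.338 and 0.234 FPKM in Zfp90 fl/fl and at 0.853, 0.718 and 0.386 FPKM in Zfp90ΔIEC, without overlap (log2 fold change 0.35, adjusted p = 0.39 in limma without the filter). *Chrd*, which encodes the BMP antagonist chordin, was at 0.166, 0.199 and 0.203 FPKM in Zfp90 fl/fl and at 0.111, 0.134 and 0.143 FPKM in Zfp90ΔIEC, also without overlap (log2 fold change -0.07, adjusted p = 0.386). *Id4*, the remaining Id gene, was at 0.427, 0.814 and 0.631 FPKM in Zfp90 fl/fl and at 1.20, 0.871 and 0.62 FPKM in Zfp90ΔIEC, with overlap. *Shh*, a hedgehog ligand of the epithelium, was at 0.149, 0.243 and 0.124 FPKM and at 0.435, 0.225 and 0.131 FPKM. Replicate 1 was the highest Zfp90ΔIEC sample for *Bmp7*, *Id4* and *Shh*, as it was for *Bmp3* and *Muc2*. Other goblet markers did not all share this, as given above.

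*Ski*, a corepressor of Smads related to *Skil*, was at 10.8, 10.6 and 3.49 FPKM in Zfp90 fl/fl and at 9.28, 10.7 and 9.99 FPKM in Zfp90ΔIEC. Its log2 fold change of 0.37 (adjusted p = 0.683, standard error 0.3556), the one positive value among the 14 tested genes of the list of Smads and their regulators, which leaves out *Smad6* and *Smad7*, came with a single low sample, Zfp90 fl/fl replicate 3. These genes were chosen after their values were seen.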
